A study of Mus musculus with 2 samples.

Results

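The GTPases of the immunity-associated protein family, or GIMAP proteins, were followed as a gene family in double-positive (DP) thymocytes with and without *Cxxc1*. The members were the mouse genes of the *Gimap* cluster that the expression table lists by symbol: *Gimap1*, *Gimap3*, *Gimap4*, *Gimap5*, *Gimap6*, *Gimap7*, *Gimap8* and *Gimap9*, 8 of the 21041 genes of the table. The rule that picks them uses gene symbols and no measured value, although earlier results of these data were known when the family was chosen. Cxxc1, also called CFP1, is a protein that binds unmethylated CpG dinucleotides and brings the Setd1 histone H3K4 methyltransferase complex to promoters, and the study asked what its loss does to developing T cells. RNA sequencing was carried out on 1 library of WT and 1 library of *Cxxc1*-deficient DP thymocytes, the stage at which thymocytes carry both CD4 and CD8. WT mice carried floxed *Cxxc1* alleles (*Cxxc1* fl/fl) without Cre, and *Cxxc1*-deficient mice were *Cxxc1* fl/fl *hCD2* Cre, in which the human CD2 promoter drives Cre in early thymocytes and also in other immune cells, so that both groups shared the floxed alleles. The genotype field of the deficient library reads Cxxc1+/-, which is not the genotype given in the study's methods, and the library was grouped by its title. The number of animals behind each library is not given in the sources used here.

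With 1 library per genotype there is no replicate check on any difference given here, and no difference was tested. The deposited values are normalized whole numbers whose unit is not named. Over genes with a single transcript length they moved in steps that scaled with the inverse of transcript length, as reads per kilobase do, so levels of different genes were compared on this per-length scale. The step corresponded to 4.055 for 1 read on 1 kb of transcript in the WT library and to 4.7 in the *Cxxc1*-deficient library, and the deposited values then amounted to about 1250000 and 660000 reads on the 18565 genes with a coding model. Approximate reads obtained in this way gave each value a 95% exact interval that covers counting error only. In the bulk libraries, fewer cells that express a gene and less RNA of it per cell cannot be told apart.

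The whole table set the background. The WT column added up to 1551994 and the other column to 981677, each with a median of 36, and 1122 olfactory receptor genes, which thymocytes are not known to use, had medians of 22 and 24 and a 95th percentile of 54.0 and 57.0, so that values up to the fifties lay within their range. *Cxxc1* itself had a value of 91 in the WT library against 50 in the other, a ratio of 0.549 (95% counting interval 0.338 to 0.876) over the whole gene, which does not isolate the deleted exons. By quantitative PCR, the study found hardly any *Cxxc1* mRNA in *Cxxc1*-deficient DP cells, and it reported loss of the protein by western blot. Of 15 genes on chromosome Y, 0 were above 0 in the WT library and 7 were in the *Cxxc1*-deficient library. With 1 library per genotype, the part of this difference in the results cannot be told apart from that of genotype and was not tested. The T-cell genes of the DP stage were abundant in both libraries, with *Rag1* at 20778 and 5058 and *Cd8a* at 3503 and 507.

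GIMAP proteins are small GTP-binding proteins found mainly in lymphocytes, many of them anchored in intracellular membranes, and their genes lie side by side in 1 cluster in mammals. They are best known for keeping T cells alive: loss of *Gimap5* in rats and mice empties the peripheral T-cell pool, and several members change in level as thymocytes pass from the DP stage to the mature single-positive (SP) stage. Some members have been linked to proteins of the BCL2 family, which govern apoptosis, and *Gimap6* to the GABARAP proteins of autophagy.

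In the mouse genome NCBIM37 (mm9) with the GENCODE M1 annotation, the members occupied 119 kb of chromosome 6, from 48597233 to 48716518, in the order *Gimap8*, *Gimap9*, *Gimap4*, *Gimap6*, *Gimap7*, *Gimap1*, *Gimap5*, *Gimap3*. *Gimap6* (48651581 to 48658224) and *Gimap3* (48715088 to 48716518) are annotated on the minus strand and the other 6 genes on the plus strand. The annotated *Gimap1* gene reaches from 48668606 to 48702599 through long read-through transcripts, so it takes in *Gimap7* (48668620 to 48674635) and overlaps *Gimap5* (48696196 to 48704209). Its own coding transcript with 3 exons lies at 48689053 to 48693789. How shared reads were assigned among the 3 genes is not given in the sources used here.

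Because Cxxc1 recognises CpG, the CG dinucleotides at the start sites of the members were counted. The study found only a small part of the Cxxc1-binding sites of DP thymocytes at CpG islands. It also reported that a Cxxc1 mutant without DNA-binding activity still rescued development in culture. All 8 members had an entry among the 32851 RefSeq promoters of the assembly GRCm38.p6 (250 bases before to 50 bases after a start site), *Gimap8* with 2 start sites, which made 9 promoters. Of these, 4 are shown here, without the bases after the start site and with each CG dinucleotide in capitals, because *Gimap6* and *Gimap9* had the largest differences between the libraries and *Gimap5* and *Gimap3* had small ones. The *Gimap6* promoter is chr6:48708245-48708494 on the minus strand, that of *Gimap9* chr6:48675885-48676134 on the plus strand, that of *Gimap5* chr6:48745947-48746196 on the plus strand and that of *Gimap3* chr6:48770852-48771101 on the minus strand, all in GRCm38.p6 coordinates and written 5′ to 3′ along the gene.
Gimap6: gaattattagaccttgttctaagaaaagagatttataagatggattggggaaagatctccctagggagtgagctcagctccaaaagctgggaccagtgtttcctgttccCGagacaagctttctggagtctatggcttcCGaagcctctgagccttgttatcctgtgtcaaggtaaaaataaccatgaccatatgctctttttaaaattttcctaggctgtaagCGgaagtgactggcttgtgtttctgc
Gimap9: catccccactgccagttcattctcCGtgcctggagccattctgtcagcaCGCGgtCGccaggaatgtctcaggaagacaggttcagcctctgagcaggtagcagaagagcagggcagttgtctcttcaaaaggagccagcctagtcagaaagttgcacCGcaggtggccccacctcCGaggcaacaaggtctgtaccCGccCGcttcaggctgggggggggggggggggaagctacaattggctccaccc
Gimap5: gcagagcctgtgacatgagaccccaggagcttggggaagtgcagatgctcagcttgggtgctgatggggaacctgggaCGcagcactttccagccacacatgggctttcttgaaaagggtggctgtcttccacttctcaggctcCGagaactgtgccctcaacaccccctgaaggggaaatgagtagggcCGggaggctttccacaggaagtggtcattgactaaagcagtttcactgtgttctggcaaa
Gimap3: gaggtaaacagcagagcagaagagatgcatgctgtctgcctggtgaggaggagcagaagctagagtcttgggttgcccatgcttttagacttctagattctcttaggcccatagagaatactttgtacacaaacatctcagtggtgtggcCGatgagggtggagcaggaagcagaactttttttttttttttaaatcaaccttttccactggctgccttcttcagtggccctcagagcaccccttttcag
The printed stretches hold 3 CG dinucleotides for *Gimap6*, 8 for *Gimap9*, 3 for *Gimap5* and 1 for *Gimap3*.

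Over the full 300-base windows, the members' promoters held 2 to 8 CG dinucleotides, against a median of 7 over all promoters (25th percentile 3, 75th percentile 20). *Gimap9* held 8, the *Gimap1*, *Gimap4*, *Gimap5* and *Gimap6* promoters 4 each, *Gimap8* 3 at 1 start site and 2 at the other, and *Gimap3* and *Gimap7* 2 each. The number of CG over that expected from base composition ran from 0.104 in *Gimap7* to 0.325 in *Gimap9*, and lay below the median of all promoters (0.384) in all 9. *Gimap6* and *Gimap5*, with 4 CG each, had a large and a small difference between the libraries.

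**Figure D1:**
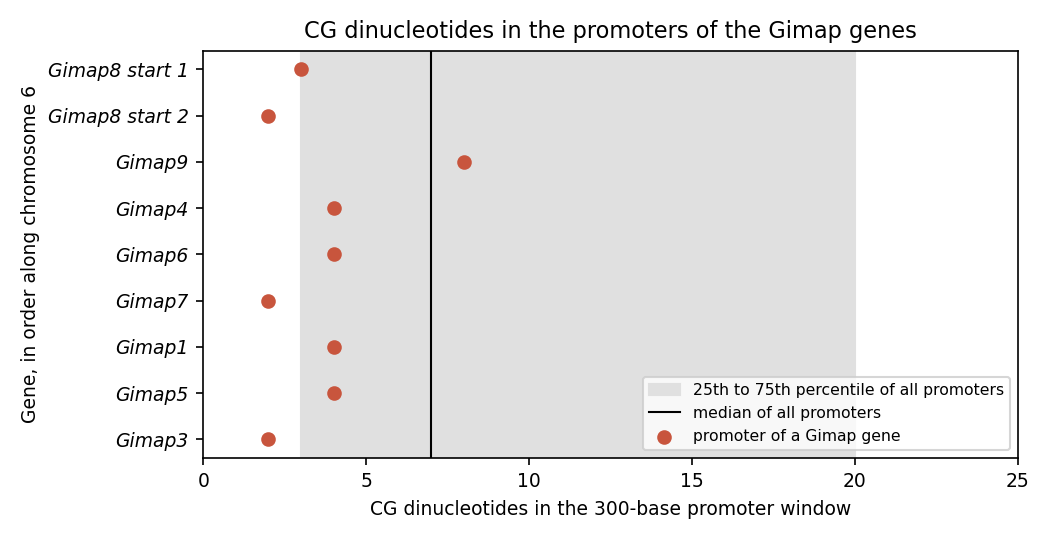
Number of CG dinucleotides (x axis) in the 300-base RefSeq promoter window of each *Gimap* start site (rows, in chromosome order). The grey area spans the 25th to 75th percentile of all 32851 promoters, 3 to 20, and the black line is their median of 7. Only *Gimap9*, with 8, lies to the right of the median.

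Sequence motifs, picked after the sequences had been seen, were searched on both strands of the same windows. The ETS-type core GGAAGT was present in *Gimap1* and *Gimap6* (1 match each) and in *Gimap5* and *Gimap9* (2 matches each), 4 of 9 promoters against 23.8% of all promoters. The RUNX-type core TGTGGT was present in *Gimap1*, *Gimap4* and *Gimap7*, 3 of 9 against 16.8%. The E-box CANNTG was present in 7 of 9 against 72.3%, and was missing in *Gimap1* and *Gimap3*. Each motif was counted on its own, whether or not its matches overlapped those of another. A match is a stretch of letters only.

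In WT DP thymocytes the members spanned a 17.4-fold range. *Gimap6*, whose protein binds a GABARAP protein, was the highest at 558 (95% counting interval 486 to 636, about 219 reads). *Gimap9* read 352 (292 to 420, about 120 reads) and *Gimap8*, which encodes a member with several GTP-binding domains and the longest coding sequence of the family (2067 bases), 284 (250.4 to 321, about 256 reads). These 3 genes carried 70.8% of the summed value of the family in WT cells.

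*Gimap1*, a gene that mature B and T cells need to survive, read 213 (167 to 264) and *Gimap5* 129 (98.7 to 165). *Gimap4*, whose protein has been linked to T-cell apoptosis, read 71 (49.0 to 101). *Gimap7* and *Gimap3* closed the order at 48 (26.8 to 79.1, about 15 reads) and 32 (12.6 to 64.6, about 7 reads). Both of the latter lay within the range of the olfactory receptor genes, of which 91.2% were below *Gimap7* and 69.2% below *Gimap3*, whereas *Gimap4* was above 99.8% of them and the other 5 members above all. Of the 7 pairs of neighbours in this order, 4 differed beyond counting error (*Gimap6* over *Gimap9*, *Gimap8* over *Gimap1*, *Gimap1* over *Gimap5* and *Gimap5* over *Gimap4*), and *Gimap9* and *Gimap8*, *Gimap4* and *Gimap7*, and *Gimap7* and *Gimap3* did not.

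**Figure D2:**
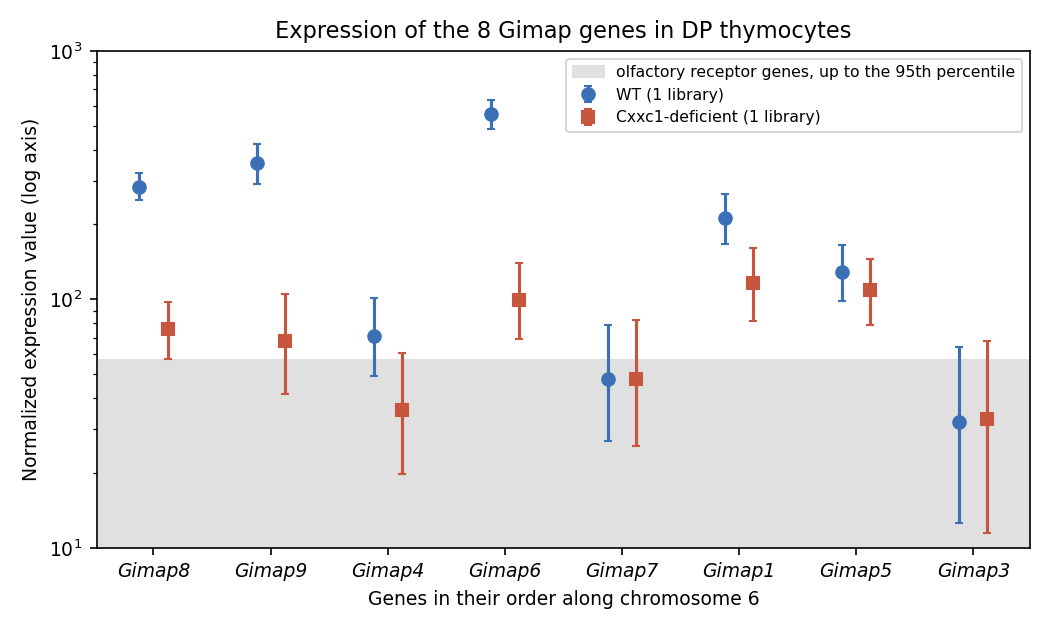
Normalized expression values (y axis, log scale) of the 8 *Gimap* genes in chromosome order in the WT library (circles) and the *Cxxc1*-deficient library (squares), with 95% counting intervals as bars. The grey area reaches up to 57.0, the higher of the 95th percentiles of olfactory receptor genes. *Gimap8*, *Gimap9* and *Gimap6* stand far apart between the libraries, while the pairs of *Gimap7*, *Gimap5* and *Gimap3* overlap.

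The order was different in *Cxxc1*-deficient DP thymocytes, where the values lay within a 3.52-fold range. *Gimap1* now read highest at 116 (82.0 to 161), followed by *Gimap5* at 109 (79.0 to 145) and *Gimap6* at 99 (69.4 to 140). *Gimap8* read 76 (57.8 to 97.9), *Gimap9* 68 (41.5 to 105) and *Gimap7* 48 (25.6 to 82.3). *Gimap4* read 36 (19.9 to 61.0) and *Gimap3* 33 (11.4 to 67.7), and 72.4% and 66.0% of olfactory receptor genes were below them. In this library 0 of the 7 pairs of neighbours differed beyond counting error. *Gimap6*, *Gimap8* and *Gimap9* together carried 41.5% of the summed value.

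Added up over the family, the values gave 1687 for WT and 585 for *Cxxc1*-deficient cells, a 2.88-fold lower value, against a ratio of 0.633 for the sum of the whole table. *Gimap6*, *Gimap8* and *Gimap9* made up 86.3% of the difference of -1102, and without *Gimap6* the sum was 2.32-fold lower. In all, 6 of the 8 members were lower in *Cxxc1*-deficient cells, 1 was higher and 1 was equal, where 59.9% of 20125 genes above 0 in at least 1 library were lower. Of them, 3 were at least 2-fold lower, against 17.4% of all genes, and 0 were at least 2-fold higher, against 5.89%. The median log2 ratio of the members was -0.93 and that of all genes -0.20.

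*Gimap6* had the largest difference, from 558 in the WT to 99 in the *Cxxc1*-deficient library. This is a 5.64-fold lower value (95% counting interval 3.86 to 8.23), or a log2 ratio of -2.49. *Gimap9* was 5.18-fold lower (3.21 to 8.78, log2 -2.37) and *Gimap8* 3.74-fold lower (2.81 to 5.06, log2 -1.90). In these 3 genes and in *Gimap1* the intervals of the values themselves did not overlap between the libraries.

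*Gimap4* was 1.97-fold lower (1.02 to 4.0, log2 -0.98), from about 32 reads to about 14, and its *Cxxc1*-deficient value was within the range of the olfactory receptors. *Gimap1* was 1.84-fold lower (1.21 to 2.77, log2 -0.88). *Gimap5*, the member with the best known part in T-cell survival, was 1.18-fold lower with an interval that includes no difference (0.797 to 1.79, log2 -0.24). *Gimap7* read 48 in both libraries (ratio 1.00, interval 0.440 to 2.26) and *Gimap3*, which has been linked to mitochondrial DNA segregation in leukocytes, 32 and 33 (ratio 1.03, 0.276 to 3.45). With about 15 and 7 reads in WT cells, the intervals of the last 2 genes allow a ratio of up to 2.26 in *Gimap7* and 3.45 in *Gimap3*.

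**Figure D3:**
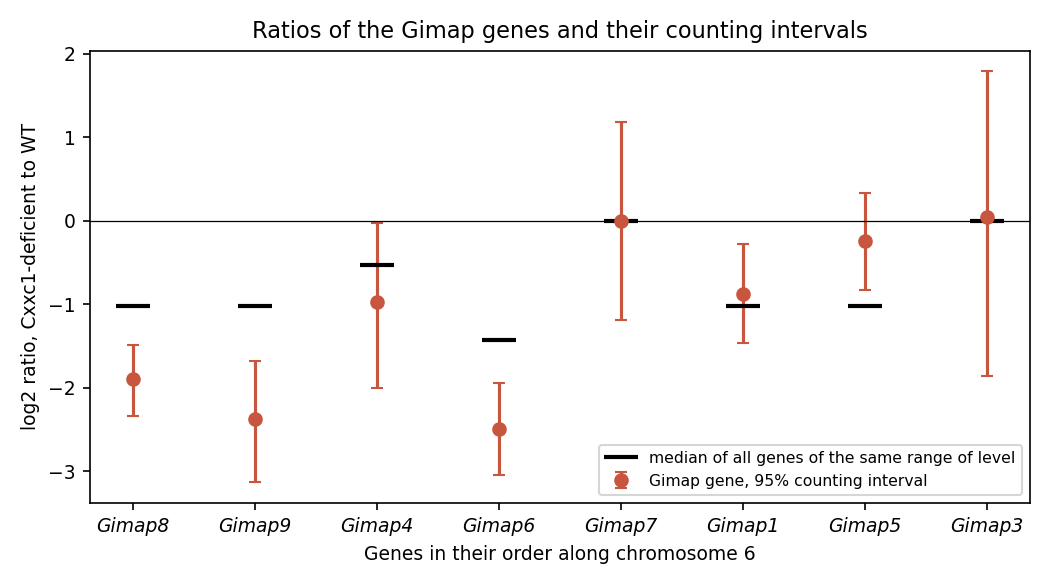
The log2 ratio of the *Cxxc1*-deficient to the WT value (y axis) of each *Gimap* gene in chromosome order, with 95% counting intervals. Black dashes give the median log2 ratio of all genes in the same range of mean level. *Gimap8*, *Gimap9* and *Gimap6* lie below their dashes with intervals that do not reach them, and *Gimap5* lies above its dash.

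Along the chromosome the members with the larger differences lay at 1 end. The first 4 genes of the cluster, *Gimap8*, *Gimap9*, *Gimap4* and *Gimap6*, were 1.97-fold to 5.64-fold lower, while the last 4, *Gimap7*, *Gimap1*, *Gimap5* and *Gimap3*, ran from a ratio of 1.03 to a 1.84-fold lower value. This split was made after the values had been seen and was not tested. The interval of *Gimap4* overlaps those of all 4 genes at the other end. Of these 4, *Gimap7* and *Gimap3* read within the range of the olfactory receptor genes in both libraries. Genes with a mean under 50, as theirs, had a median log2 ratio of 0.

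Ratios of members to each other within a library do not depend on how the libraries were scaled. The change of 1 member relative to another was therefore taken over all 28 pairs, as a ratio of ratios with a 95% counting interval that was not adjusted for the number of pairs. The interval lay on 1 side of 1 in 13 pairs. All 13 set *Gimap6*, *Gimap8* or *Gimap9* against 1 of the other 5 members, out of 15 such pairs. The exceptions were *Gimap8* with *Gimap3* (3.85, 0.988 to 13.4) and *Gimap8* with *Gimap4* (1.89, 0.876 to 3.93). *Gimap6*, *Gimap8* and *Gimap9* were set apart after the values had been seen, because their differences were the largest. The split of the pairs follows in part from that choice. Pairs with *Gimap3* or *Gimap7* rest on values within the range of the olfactory receptor genes.

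Relative to *Gimap6*, *Gimap5* was 4.76-fold (2.67 to 8.20) higher in *Cxxc1*-deficient than in WT cells, and *Gimap1* 3.07-fold (1.73 to 5.39) higher. *Gimap7*, the gene next to *Gimap6* on the chromosome, was 5.64-fold (2.22 to 13.7) higher relative to it. Among *Gimap6*, *Gimap8* and *Gimap9*, 0 of 3 pairs differed beyond counting error, the widest being *Gimap8* over *Gimap6* at 1.51 (0.918 to 2.43). Among the other 5 members, 0 of 10 did, and these intervals were wide, that of *Gimap7* over *Gimap5* for instance running from 0.471 to 2.99.

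Across the whole table the difference between the libraries depended on the level of a gene, and each member was set beside genes of its own level. Of the 2066 genes with a mean of 100 to 300, 94.9% were lower in *Cxxc1*-deficient cells, 52.8% were 2-fold lower or more and 0.581% 2-fold higher or more, with a median log2 ratio of -1.03. In this range, 22 other genes (1.07%) had a ratio as low as that of *Gimap9* and 113 others (5.47%) as low as that of *Gimap8*. *Gimap1* stood near the middle of the same range, with 62.5% of genes as low or lower, and *Gimap5* near its upper end, with 91.3%.

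*Gimap6* belonged to the 367 genes with a mean of 300 to 1000, of which 96.7% were lower and 76.6% at least 2-fold lower, with a median of -1.43. Only 9 of the others in this range (2.46%) had a ratio as low. *Gimap4*, among 3657 genes with a mean of 50 to 100 (82.6% lower, 20.0% lower and 0.656% higher by 2-fold or more, median -0.53), had a ratio that 20.7% of genes reached. *Gimap3* and *Gimap7*, with means under 50, had ratios close to the median of 0 of that range, where 47.8% of 13996 genes were lower. Neither was past 2-fold, where 9.75% of the range was lower and 8.22% higher by that much. *Gimap1* and *Gimap5* thus shared a range of level with *Gimap8* and *Gimap9* but not their ratios.

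**Figure D4:**
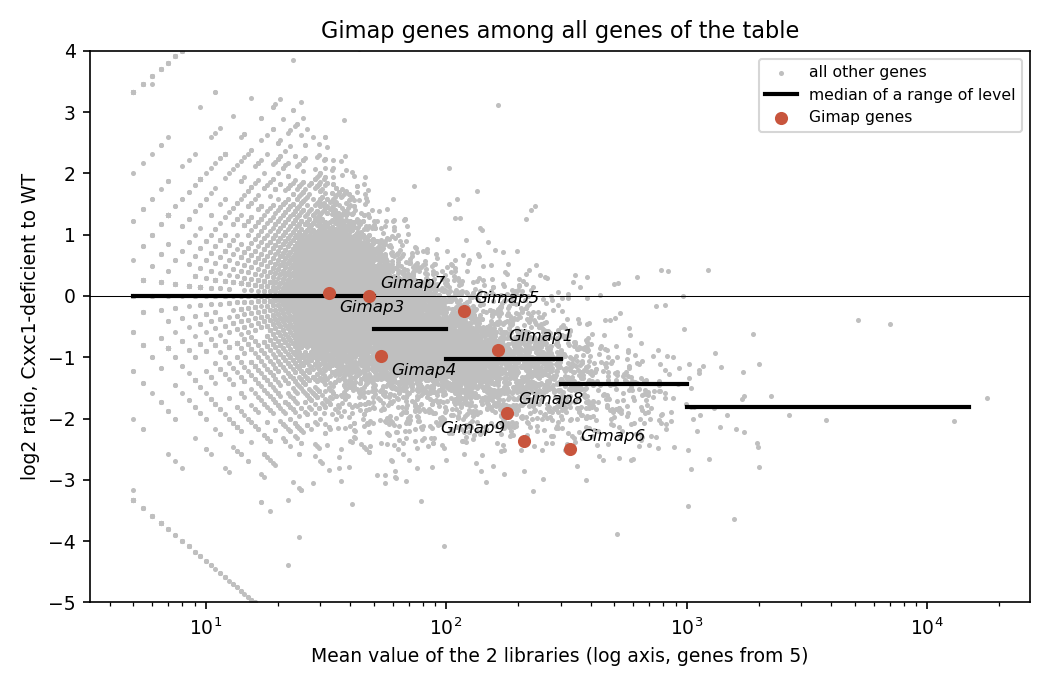
The log2 ratio of the *Cxxc1*-deficient to the WT value (y axis) against the mean of the 2 values (x axis, log scale) for genes with a mean of at least 5, with the *Gimap* genes in red. Black lines are the medians over ranges of level, from 0 for means under 50 to -1.81 for means of 1000 and over. *Gimap6*, *Gimap8* and *Gimap9* lie below the line of their range, *Gimap5* above it.

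The 3 genes of the table closest to *Gimap6* in both values, over the 2 libraries, were *Endou* with 547 and 98, *R3hdm4* with 537 and 101 and *Ctsl* with 533 and 93. Their distances from *Gimap6* in log2 units were 0.032, 0.062 and 0.112.

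The scaling of the libraries moved all ratios together. With the libraries set to the same sum of values, the median of all genes was 0.46, and it was 0.80 when the median of genes with a mean of at least 100 was set equal. *Gimap6*, *Gimap8* and *Gimap9* were lower in *Cxxc1*-deficient cells under all 7 ways of setting the libraries to each other that were computed, the deposited scale included, and after subtraction of the olfactory receptor median, with log2 ratios of -1.50 to -3.23 for *Gimap6*, -0.91 to -2.64 for *Gimap8* and -1.38 to -3.11 for *Gimap9*. The direction of *Gimap5* turned under 4 of them, reaching 0.75, and those of *Gimap1* (0.12) and *Gimap4* (0.017) turned under 1. After the subtraction *Gimap4* read -2.03, against -0.98 as deposited, and *Gimap8* read -2.33. *Gimap3*, at 0.044 as deposited, read -0.69 with the same *Gapdh* value and -0.15 after the subtraction. Under the other scalings *Gimap3* was higher, up to 1.04 when the median of genes with a mean of at least 100 was set equal. *Gimap7*, at 0 as deposited, ran from -0.74 to 1.00. The median of the members minus that of all genes was -0.73. Each of the 7 multiplies 1 library by a single factor, so this difference could not change among them. After the subtraction it was -1.10.

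**Figure D5:**
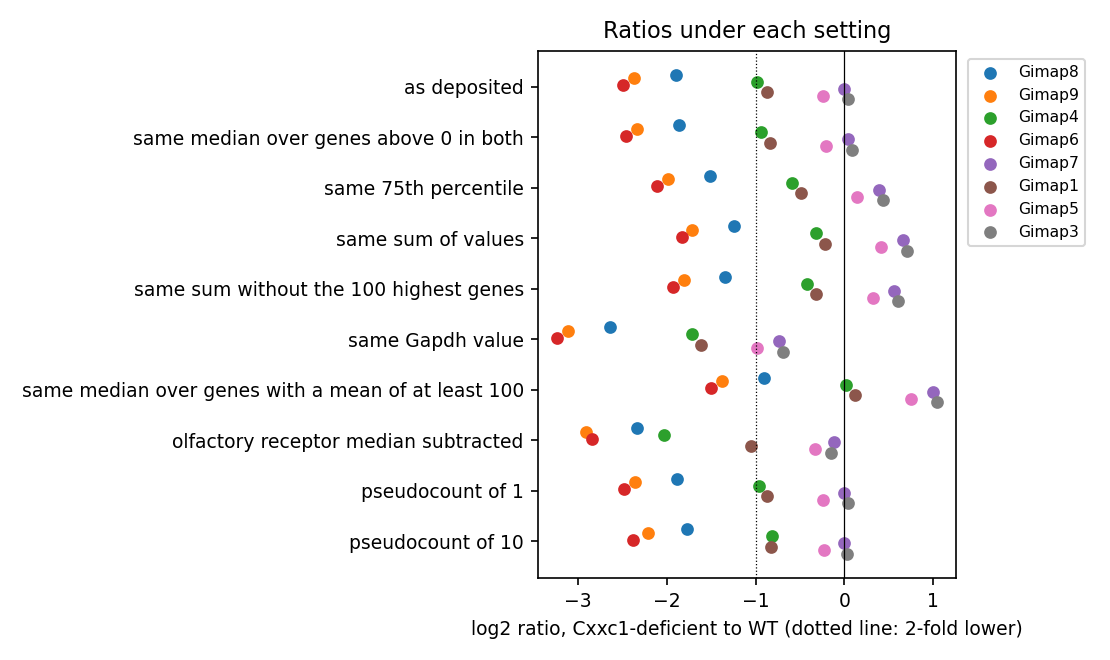
The log2 ratio of the *Cxxc1*-deficient to the WT value (x axis) of each *Gimap* gene (colours) under each setting (rows), as deposited at the top. The dotted line marks a 2-fold lower value. *Gimap6*, *Gimap8* and *Gimap9* stay left of 0 in every row, whereas *Gimap5* lies on either side.

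Members of the family resemble each other, which bears on reads of 50 bases that were kept only where they mapped uniquely. Over 28 pairs of coding sequences the identity of aligned bases ranged from 55.9% (*Gimap1* and *Gimap9*) to 90.3% (*Gimap3* and *Gimap5*, 811 of 898 bases), with 66.7% for the next pair, *Gimap7* and *Gimap9*. *Gimap3* and *Gimap5* share 190 windows of 50 bases letter for letter, 22.2% of the *Gimap3* and 9.98% of the *Gimap5* transcript, and reads from these windows could not be counted for either gene. The windows found once in the genome made up 75.03% of *Gimap3*, 83.4% of *Gimap1*, 85.1% of *Gimap5* and 87.8% of *Gimap8*, and 94.1% to 96.6% in *Gimap6*, *Gimap4*, *Gimap7* and *Gimap9*. The low levels of *Gimap3* are uncertain in part for this reason in both libraries, and they rest on about 7 reads in WT and 6 in *Cxxc1*-deficient cells.

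Outside the cluster, the 5 table genes on each side had low values in both libraries, 11 to 69 in WT and 13 to 63 in *Cxxc1*-deficient cells. Their sum was 407 and 409, and their median log2 ratio was -0.10, with 6 lower and 4 higher and 2 past 2-fold in each direction. *Repin1*, a zinc finger gene 3 places before *Gimap8*, read 51 and 48. *Tmem176b* and *Tmem176a*, a pair of membrane protein genes directly behind *Gimap3*, read 68 and 63 and 69 and 51. The 2 genes past 2-fold upward, *Gm5111* (29 and 59) and *Doxl2* (11 and 37), and the 2 downward, *Rarres2* (26 and 13) and *Svs1* (50 and 24), were within or close to the olfactory receptor range. In a second list of genes around the cluster, which shares members with these, 8 of 10 measured genes were lower and 2 at least 2-fold lower, with a median of -0.33, against 59.9%, 17.4% and -0.20 over all genes.

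Genes whose products have been linked to GIMAP proteins were taken from a list. Of 8 such partners, 7 were lower, 5 of them by 2-fold or more, and 1 was higher, with a median log2 ratio of -1.19. *Gsk3b*, a kinase, read 509 and 176, *Bcl2l11*, which encodes the pro-apoptotic protein BIM, 352 and 166, *Bcl2l1*, which encodes the survival protein BCL-XL, 178 and 73, and *Gabarap* 123 and 92. The BCL2 family had 9 of 14 measured genes lower and 5 higher, with 5 and 1 past 2-fold and a median of -0.46. Its highest gene, the survival gene *Mcl1*, read 722 and 306, and the pro-apoptotic gene *Bmf* 246 and 73. Both lists hold *Bcl2l11* and *Bcl2l1*, and both mix levels, with WT medians of 113 for the partners and 66 for the BCL2 family. Over all genes 59.9% were lower, 17.4% by 2-fold or more, and 5.89% were higher by that much, with a median of -0.20. The share at least 2-fold lower was 52.8% at a mean of 100 to 300 and 76.6% at 300 to 1000. The genes named here lay in these ranges.

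Stage genes of the thymus differed between the libraries as well. All 14 DP-stage genes were lower, 13 of them by 2-fold or more, with a median of -1.86. Over all genes 59.9% were lower, 17.4% by 2-fold or more. Over the 39 genes of the table with a mean of 1000 and over, 97.4% were lower, 87.2% by 2-fold or more, with a median of -1.81. Those 39 include *Rag1*, *Tcf7*, *Satb1* and *Cd8a* of the DP list itself. The DP list also holds genes of lower level, down to 183 in WT cells. *Satb1* read 6080 and 1492 and *Tcf7* 5826 and 4461. Of 11 genes of the earlier double-negative stage, 9 were higher and 3 at least 2-fold higher, with *Notch1* at 124 and 326, *Il2ra* at 63 and 207, *Notch3* at 56 and 167 and *Cd44* at 35 and 58, and their sum went from 512 to 1015. Over all genes 7493 of 20125 were higher. The share 2-fold higher or more was 5.89% of all genes, and 0.581% of those with a mean of 100 to 300, where *Notch1*, *Il2ra* and *Notch3* lay.

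The genes of mature SP thymocytes, the stage at which several *Gimap* genes are known to be raised, split evenly with 6 lower and 6 higher, 2 at least 2-fold lower and a median of -0.21, close to the 17.4% and the median of -0.20 over all genes. *Foxo1* read 199 and 86, *Cd69* 158 and 81 and *Gata3* 153 and 101, and the sum of the 12 genes was 997 and 714. *Il7r* belongs to this list and to the double-negative list. The part of a shift in stage in the differences of the *Gimap* genes was not tested.

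Markers of other cells that could be in the sort were summed in each library. The sums were 218 in the WT and 172 in the *Cxxc1*-deficient library over 7 B-cell genes, 309 and 251 over 8 NK and innate lymphoid genes, and 378 and 385 over 11 macrophage and dendritic-cell genes. They were 401 and 357 over 11 endothelial and stromal genes and 131 and 157 over 8 erythroid genes, of which 3 read 0 in each library. The highest single marker in WT cells was the endothelial gene *Pecam1*, with 119 against 66, and the highest in *Cxxc1*-deficient cells was a macrophage and dendritic-cell gene at 107. The part of such cells in the values of the *Gimap* genes was not tested.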

How the data were processed

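RNA of DP thymocytes of either genotype was isolated with TRIzol, libraries were made with a NEBNext mRNA kit, and 50-base reads were obtained with CASAVA 1.8.2 and aligned to mm9. Bowtie 1.0.1 and Partek are named in the submitters' processing notes. The authors kept uniquely mapped reads and deposited 1 value per gene and library, treated here as a score: a normalized expression value rounded to whole numbers. The normalization, the gene annotation and any use of strand are not given in the sources used here, and antisense reads cannot be told apart. Columns of per-sample values not used numbered 0.

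Values under 1 were set to 1 for log2 ratios. The value of 1 read was taken from single-length genes of 150 to 1000 bases with up to 6 reads, as the step under which most deposited values lay within 0.5 of a whole number of reads times the step over transcript length. This held for 748 of 970 (77.1%, 19.0% by chance) in WT and 793 of 1044 (76.0%, 16.3%) in *Cxxc1*-deficient cells. Reads without molecular identifiers are not independent molecules, so the Clopper-Pearson, exact Poisson and conditional odds-ratio intervals cover counting error only. Reads used the GENCODE M1 transcript with the longest coding part. For *Gimap3* that model holds coding sequence only. Python 3.11.15 with numpy 2.4.6, pandas 2.3.3 and scipy 1.17.1 was used, and the code was tested on simulated data.

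The members and lists were chosen with earlier results of these data known. Named genes were the members, *Cxxc1*, up to 5 neighbours on each side, the 4 highest genes of each list (1 is not reported here), the 3 genes closest to the highest member, and *Gapdh* where a scaling used it.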

Additional observations from a re-analysis of the deposited data

How the results depend on the processing

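No paired analysis was possible because the design holds a single library of either genotype and nothing was tested. For the same reason no replicate could be left out. As deposited, the members' median log2 ratio was -0.93 and that of their summed value -1.53. These read -0.54 and -1.14 when the 75th percentiles of the libraries were set equal, -0.27 and -0.87 when their sums were, -0.37 and -0.97 with the same sum without the 100 highest genes, -1.67 and -2.26 with the same value of *Gapdh* (6 and 10, about 2 and 3 reads), and -1.54 and -1.94 after subtraction of the olfactory receptor median. With the median of genes with a mean of at least 100 set equal they read 0.068 and -0.53, and *Gimap1* (0.12) and *Gimap4* (0.017) turned. The members' median was -0.82 with a pseudocount of 10 and -1.44 over members with a mean of at least 50. The count of members at least 2-fold lower was 5 with the same *Gapdh* value, 5 after the subtraction and 5 at a 1.5-fold threshold, against 3 as deposited. When the median of genes from 100 was set equal, 2 members were lower and 1 was higher by 2-fold or more. Under the longest annotated transcript, an alternative chosen after seeing the data, the interval for *Gimap6* was 4.34 to 7.39-fold lower. Depth limits *Gimap3*, *Gimap7* and *Gimap4* most, with about 7, 15 and 32 reads in WT cells.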
